A study of Mus musculus with 24 samples.

Results

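Non-canonical CD8+ dendritic cells (NC_CD8) sorted from mouse spleen were compared between Flt3 ITD/+ animals (ITD) and Flt3 +/+ animals (WT). The members were the 6 libraries that carry this subset label, of 24 libraries in the series: 3 WT and 3 ITD, 1 of each genotype in each of the experiment batches B, C and D. All animals were F1 mice of a C57BL/6 by FVB/N cross, so WT and ITD cells shared this background, and no treatment is given in the labels. ITD is an internal tandem duplication in 1 of the 2 alleles of Flt3, and the labels give it as the genotype of the animal, so cells other than dendritic cells carried it too. The sources used here do not state the age or sex of the mice, or whether a library came from 1 animal or from several. Replicates are independent experiments per the design text. In the fit described below, a p-value measures how ITD minus WT differences within a batch vary between batches, pooled over all subsets. Spread between replicates that the WT and ITD library of a batch share is taken out by that fit. The other libraries were of canonical CD8+ cells (C_CD8, 6 libraries, also of batches B, C and D), plasmacytoid cells (PDC, 4 libraries) and Esam-hi and Esam-lo CD11b+ cells (4 libraries each), with equal numbers of WT and ITD libraries.

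Flt3 is the receptor tyrosine kinase whose ligand drives the development of dendritic cells from bone marrow progenitors. The internal tandem duplication, best known from acute myeloid leukemia, makes the receptor signal without its ligand and strongly activates STAT5. Conventional dendritic cells of the spleen fall into a cDC1 branch, which depends on Irf8 and Batf3 and takes up dead cells, and a cDC2 branch, which is CD11b+. Canonical CD8+ cells are cDC1. Non-canonical CD8+ cells carry CD8 and the chemokine receptor Cx3cr1, lack most cDC1 genes, and share with plasmacytoid cells the transcription factor Tcf4 (E2-2).

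The label was checked against its markers. Levels of genes are given as CPM (counts per 1 M reads counted in the library, after TMM scaling), always in the order of batches B, C and D. Cx3cr1, the fractalkine receptor, stood at 117, 173 and 180.0 CPM in WT and 119, 214 and 195 CPM in ITD libraries, and at a mean of 2.09 CPM in WT C_CD8 cells. Tcf4 stood at 434, 418 and 572 CPM in WT and 493, 665 and 698 CPM in ITD libraries, and at a mean of 30.5 CPM in WT C_CD8 and 1137 CPM in WT PDC libraries. Cd209d, a C-type lectin, and Klra17, a receptor of the Ly49 family, were at means of 258 and 123 CPM in WT NC_CD8 cells against 1.08 and 1.12 CPM in WT C_CD8 cells. All 4 markers were therefore present in the 6 libraries, and the summed level of the 4 was 29.9 to 36.4 CPM in WT C_CD8 cells against 891, 1052 and 1268 CPM in WT and 1013, 1564 and 1490.0 CPM in ITD NC_CD8 cells. Sums over lists are CPM of the library total. The 4 markers summed to 1985 to 2045 CPM in WT PDC libraries, above every NC_CD8 library, and to 246 to 320 CPM in WT Esam-lo libraries. Cx3cr1 was at means of 2.98 CPM in WT PDC and 143 CPM in WT Esam-lo libraries. The sum thus set NC_CD8 cells apart from C_CD8 cells but not from PDC, and Cx3cr1 did not set them apart from Esam-lo cells.

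The 6 libraries held 14112020 to 20821930 counts each (11197145 to 22248404 over all 24). Among the 6, the principal component that took most of the variance (38.6%) set batch B apart from C and D in both genotypes, and the next one (25.8%) set the genotypes apart. Reads of Xist, the RNA of the inactive X chromosome of female cells, were seen only in batch B, at 34.5 CPM in WT and 205 CPM in ITD cells. It was called higher (log2 difference 2.57, adjusted p = 0.0132), a difference of 1 batch only, while the Y-linked genes Ddx3y, Eif2s3y, Kdm5d and Uty had reads in all 6 libraries. Flt3 itself (ENSMUSG00000042817, chr5:147330741-147400489, GRCm38) was at 902, 816 and 956 CPM in WT and 697, 743 and 751 CPM in ITD libraries. The ITD value was below its WT partner in 3 of 3 batches and the groups did not overlap, but the difference was not called (log2 difference -0.29 ± 0.076 SE, adjusted p = 0.0544 in edgeR's test, described next). Counts per gene do not show the duplication itself, so this does not check the genotype.

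In ITD cells 431 genes were called higher (2.38% of 18093 genes tested) and 435 lower (2.4%), that is 866 in all (4.79%). Called means an adjusted p under 0.05 (Benjamini-Hochberg over all genes tested) in edgeR's quasi-likelihood test, in a fit that pairs the WT and ITD library of a batch. Differences are log2, ITD minus WT, with the standard error (SE) of the fit, and n is 3 libraries in each genotype throughout. Of the called genes, 799 were protein coding and 841 had the same sign in 3 of 3 batches. The ITD libraries all lay above the WT libraries for 255 of the 431 and all below for 262 of the 435, where over all genes tested these shares were 5.93% and 5.75%. The median log2 difference over all genes tested was -0.0013.

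The pairing matters to these counts. With no batch block the same test called 19 genes higher (0.105%) and 37 lower (0.204%), 56 in all (0.31%), all of them among the 431 and 435, and 1331 genes had an unadjusted p under 0.05. Of the 130 called genes named here, 21 kept the call without the block: Socs2, Ccn3, Cdh2, Repin1, Gbp7, Ifi203, Olfm1 and Cacnb2 among the higher ones, and Apoe, Ttc39a, Gcsam, Tlr3, Xcr1, Gpr141b, Cd36, Hk3, Fam149a, Treml4, Clec4b2, Ccnd1 and Blk among the lower ones. Without batch B the test called 223 genes higher and 431 lower, of which 198 and 297 were among the calls of all 3 batches. Without C it called 126 and 118 (112 and 110 shared), and without D 211 and 279 (193 and 228 shared), so the fewest calls were shared without batch C. A called gene can mean fewer cells of a kind in the sort or less of its RNA in each cell, and in bulk libraries these cannot be told apart.

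**Figure D1:**
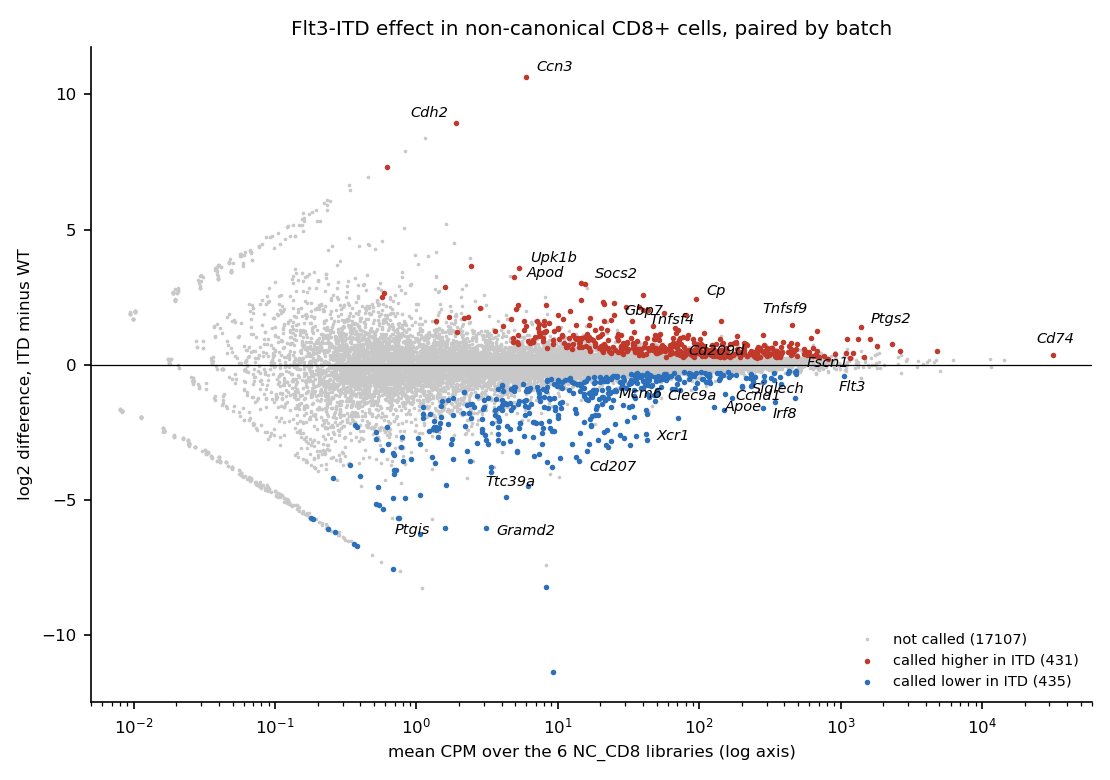
Log2 difference between ITD and WT NC_CD8 cells against the mean CPM over the 6 libraries (log axis), 1 point for each gene with reads in these cells (120 genes tested had none and are not drawn). Red points are the 431 genes called higher and blue points the 435 called lower. Ccn3 and Cdh2, with no read in WT cells, lie highest, and among genes well above 1 CPM Socs2 is high and Cd207, Tlr3 and Gcsam are low.

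Genes known as targets of STAT5, most of them induced by it, were more often called higher than lower. Of 20 genes of this list, 5 were called higher and 1 lower, with a median log2 difference of 0.38, where 2.38% and 2.4% of all genes were called higher and lower. Socs2, a feedback inhibitor of cytokine signaling (ENSMUSG00000020027, chr10:95385362-95417180), was at 1.93, 4.97 and 3.76 CPM in WT and 22.4, 25.7 and 34.2 CPM in ITD libraries. Every ITD library held more than 4 times the level of any WT library, and the difference was 2.98 ± 0.24 (adjusted p = 0.000102). Pim2, a kinase that promotes survival, was at 10.4, 21.1 and 20.1 CPM in WT and 19.2, 44.8 and 42.2 CPM in ITD libraries. It rose by a like amount in each batch (log2 differences of 0.88, 1.09 and 1.06), although the groups overlapped because both batch B libraries were low (1.02 ± 0.11, adjusted p = 0.000684). Bcl6, a transcriptional repressor that STAT5 is also known to restrain, was at 113, 196 and 192 CPM in WT and 143, 273 and 249 CPM in ITD libraries and rose in each batch with overlapping groups (0.40 ± 0.072, adjusted p = 0.00821). Socs3, another feedback inhibitor, was at 485, 69.9 and 136 CPM in WT and 669, 172 and 184 CPM in ITD libraries (0.73 ± 0.16, adjusted p = 0.0254). Gadd45g, a growth arrest gene, rose by 0.45 ± 0.11 (adjusted p = 0.0388). The gene of the list that fell was Ccnd1, cyclin D1 of the G1 phase, at 206, 219 and 196 CPM in WT and 84.4, 96.6 and 115 CPM in ITD libraries (-1.08 ± 0.15, adjusted p = 0.00257), and 21.6% of its 50-base stretches are shared with another annotated gene. Cish, a further STAT5-induced inhibitor, had a log2 difference of 1.33 and was not called (adjusted p = 0.142). Without batch C, Bcl6 and Socs3 were no longer called (adjusted p = 0.0894 and 0.203), while Socs2, Pim2 and Ccnd1 were (0.00062, 0.00847 and 0.0308). In all, 3 genes of the list were then called higher and 1 lower. Of 17 tested targets of the MAPK pathway, the other main branch below Flt3, only Dusp6 was called, a share near that over all genes (4.79%). This phosphatase of ERK fell from 32.6, 86.8 and 63.7 CPM to 16.6, 43.2 and 21.6 CPM (-1.18 ± 0.17, adjusted p = 0.00282).

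Promoter windows of RefSeq (build GRCm38.p6, 250 bases before to 50 after the gene's start) were searched for TTCNNNGAA, the core letters that STAT dimers bind, which reads the same on both strands. It lay in 8.3% of all windows of the table, and among genes with a window in 8.36% of the genes tested and 8.87% of those called higher (29 of 327) and 10.4% of those called lower (33 of 317). On the STAT5 list 3 of the 13 genes with a window held it, among them Cish, which was not called, and the called genes Bcl6 and Socs3. The 250 bases before the start of these 2 are shown because both genes rose, with the match in capitals. Bcl6 is at chr16:23988853-23989102 and Socs3 at chr11:117969367-117969616, both on the minus strand.
Bcl6: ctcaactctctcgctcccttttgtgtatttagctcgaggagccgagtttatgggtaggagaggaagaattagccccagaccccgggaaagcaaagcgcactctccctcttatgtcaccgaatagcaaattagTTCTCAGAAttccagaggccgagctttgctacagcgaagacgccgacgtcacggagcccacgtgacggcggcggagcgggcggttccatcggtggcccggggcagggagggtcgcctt
Socs3: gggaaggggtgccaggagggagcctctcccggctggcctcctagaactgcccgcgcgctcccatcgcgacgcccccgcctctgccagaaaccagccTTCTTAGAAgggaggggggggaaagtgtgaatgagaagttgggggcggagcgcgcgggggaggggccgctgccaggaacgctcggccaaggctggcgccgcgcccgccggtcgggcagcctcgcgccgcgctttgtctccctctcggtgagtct

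Genes of dendritic cell maturation, the program that carries antigen to lymph nodes and shows it to T cells, rose in part. Of 22 tested, 7 were called higher and 1 lower (median 0.19), against 2.38% and 2.4% of all genes. Fscn1, the actin bundler of mature dendritic cells (ENSMUSG00000029581, chr5:142960343-142973185, 4.37 Mb from Flt3), was at 423, 318 and 502 CPM in WT and 885, 645 and 913 CPM in ITD libraries. Each ITD library lay above each WT library, and the rise was of one size in the 3 batches (1.07, 1.02 and 0.86; 0.98 ± 0.10, adjusted p = 0.000581). Ccr7, the receptor that guides mature cells to lymph nodes, was at 1185, 274 and 622 CPM in WT and 3043, 475 and 1025 CPM in ITD libraries. Levels differed more between batches than between genotypes, and the rise appeared within each batch (0.96 ± 0.13, adjusted p = 0.002). Tnfaip3 (A20), which restrains NF-kB, rose from 1146, 785 and 826 to 2083, 1523 and 1629.7 CPM with no overlap (0.93 ± 0.13, adjusted p = 0.00191). Socs2, described with the STAT5 targets, is also on this list and is 1 of the 7 called higher. Cd200, a ligand that quiets myeloid cells, was the 1 gene that fell (-0.63 ± 0.14, adjusted p = 0.0213). The costimulatory molecules Cd40, Cd80 and Cd83 had differences of 0.31, 0.44 and 0.35 and were not called (adjusted p = 0.143, 0.284 and 0.173). Without batch C, 5 genes of the list were called higher and none lower (Cd200 adjusted p = 0.203, and 0.11 without batch D). The summed level of the list was 8593, 5882 and 7762 CPM in WT and 12816, 8120.3 and 9939 CPM in ITD cells, higher in ITD in each batch (exact permutation p = 0.2, two-sided, where 0.1 is the smallest that 3 against 3 allows).

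Signals that dendritic cells send to T cells moved in part with this. Of 35 tested cytokines and ligands, 6 were called higher and 2 lower (median 0.10), against 2.38% and 2.4% of all genes. Tnfsf9 (4-1BBL), a costimulator of activated T cells, was at 123, 317 and 289.9 CPM in WT and 352, 855 and 772 CPM in ITD libraries. All ITD libraries were above all WT libraries, with log2 differences of 1.52, 1.43 and 1.41 (1.45 ± 0.23, adjusted p = 0.00411). Tnfsf4 (OX40L), another costimulator, was at 27.5, 1.62 and 13.3 CPM in WT and 130.2, 10.3 and 41.9 CPM in ITD libraries. It rose within each batch while the batches differed by more than the genotypes (2.13 ± 0.26, adjusted p = 0.00143). Cxcl16, a chemokine, rose from 50.6, 46.1 and 46.4 to 97.7, 73.2 and 79.996 CPM (0.80 ± 0.09, adjusted p = 0.000827), and 16.9% of its 50-base stretches also belong to Zmynd15. Tnfsf13b (BAFF), a survival factor of B cells, was called higher at low levels (0.0481, 0.394 and 0.0671 CPM in WT and 0.308, 1.65 and 0.943 CPM in ITD libraries; adjusted p = 0.0132). Il15, a survival cytokine of NK and memory CD8+ T cells, fell from 2.21, 6.94 and 1.88 to 0.679, 1.53 and 1.53 CPM (-1.46 ± 0.29, adjusted p = 0.0146). Tnfsf18 (GITRL) had 26 reads over the WT libraries and 0 over the ITD libraries, which is at least 7.86-fold lower against a floor of 3 reads over the group (adjusted p = 0.0491). Without batch C the calls of Tnfsf13b, Il15 and Tnfsf18 were lost (adjusted p = 0.0701, 0.247 and 0.198), and those of Tnfsf4, Tnfsf9 and Cxcl16 held. Without batch B, Il15 and Tnfsf18 were at 0.0549 and 0.0908, and without batch D, Tnfsf13b and Tnfsf18 were at 0.0774 and 0.138.

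**Figure D2:**
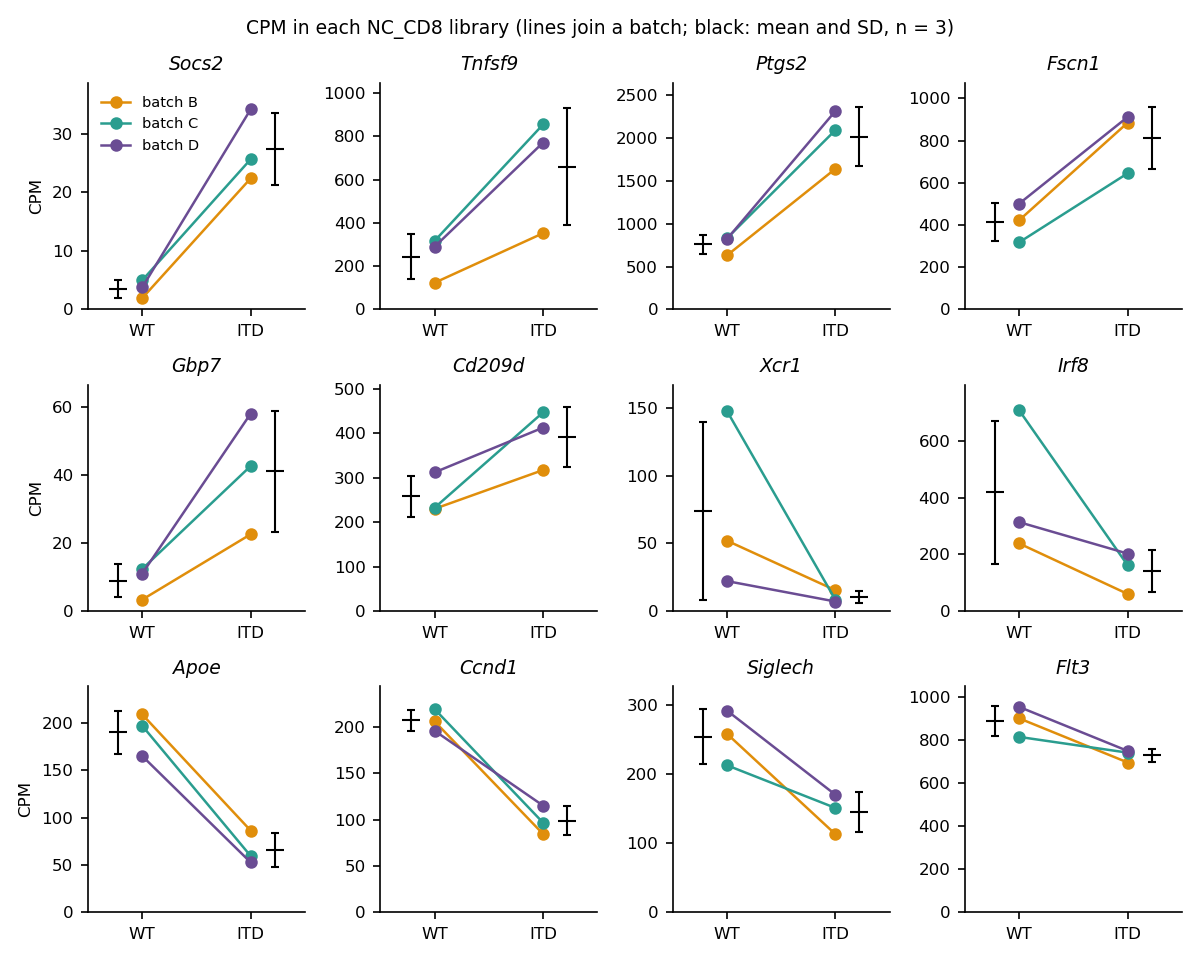
CPM of 12 genes in each of the 6 NC_CD8 libraries, with a line for each batch and the mean and SD of each genotype in black (n = 3). Socs2, Tnfsf9, Ptgs2, Fscn1, Gbp7 and Cd209d rise along all 3 lines and Xcr1, Irf8, Apoe, Ccnd1, Siglech and Flt3 fall along all 3, of which Flt3 was not called.

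Parts of the class II antigen presentation pathway rose by small amounts. Of 14 tested genes, 4 were called higher and none lower (median 0.18), against 2.38% and 2.4% of all genes. Cd74, the invariant chain that guides class II molecules to the loading compartment, was at 27827, 25832 and 29623 CPM in WT and 36183, 34816 and 35201 CPM in ITD libraries (0.35 ± 0.065, adjusted p = 0.00964). H2-DMa and H2-DMb2, chains of the peptide exchanger, rose by 0.27 ± 0.054 and 0.45 ± 0.067 (adjusted p = 0.0155 and 0.00312), and H2-DMb2 shares 25.9% of its 50-base stretches with H2-DMb1, so reads of these copies may be shared. Ifi30 (GILT), a thiol reductase that unfolds antigen, rose by 0.32 ± 0.081 (adjusted p = 0.0394). The class II chains H2-Ab1 and H2-Aa had differences of 0.18 and 0.19 and were not called (adjusted p = 0.0657 and 0.0875). The groups of all 4 called genes did not overlap. Without batch C only H2-DMb2 stayed called (adjusted p = 0.0428; Cd74 0.0953, H2-DMa 0.146, Ifi30 0.319), and likewise without batch B (Cd74 0.0625, H2-DMa 0.0586, Ifi30 0.151). None of 16 genes of class I presentation was called in edgeR's test (median -0.0082), and DESeq2 called 2 lower; at an unadjusted p under 0.05 edgeR had 3 higher and 3 lower. Psmb9, a subunit of the immunoproteasome, and Pdia3, a chaperone of the loading complex, had the smallest p, with -0.43 ± 0.12 and -0.19 ± 0.057 (adjusted p = 0.0665 and 0.0869).

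Of 28 interferon-stimulated genes 3 were called higher and none lower (median 0.32), against 2.38% and 2.4% of all genes. Ifi203, a DNA sensor of the Ifi200 family, was at 20.1, 26.6 and 29.99 CPM in WT and 46.95, 82.8 and 78.4 CPM in ITD libraries. The ITD libraries all lay above the WT libraries (1.42 ± 0.14, adjusted p = 0.000525), and 12.4% of its 50-base stretches are shared, mainly with its pseudogene Ifi203-ps. Oasl2, an antiviral protein of the OAS family, rose from 3.18, 2.31 and 4.70 to 8.33, 6.81 and 17.1 CPM (1.61 ± 0.32, adjusted p = 0.0136), and Stat2, the signal transducer of the type I interferon receptor, from 55.4, 98.3 and 87.5 to 70.1, 136 and 124 CPM (0.44 ± 0.093, adjusted p = 0.0198). Isg15 and Rsad2, strongly induced by interferon, had differences of 0.36 and 0.58 and were not called (adjusted p = 0.324 and 0.228). Oasl2 and Stat2 lost the call without batch C (adjusted p = 0.0785 and 0.138) and without batch D (0.0975 and 0.112), and Stat2 also without batch B (0.0528). The same windows were searched on both strands for the core of the interferon-stimulated response element, taken as 2 copies of GAAA with any 2 bases between them. It lay in 3.44% of all windows and, among genes with a window, in 3.97% of those tested, 5.2% of those called higher (17 of 327) and 6.62% of those called lower (21 of 317). On this list 14 of the 21 genes with a window held it. The 250 bases before the start of Ifi203 (chr1:173942493-173942742, minus strand) and Stat2 (chr10:128270248-128270497, plus strand), 2 called genes that hold it, are shown with the match in capitals, which for Stat2 lies on the opposite strand.
Ifi203: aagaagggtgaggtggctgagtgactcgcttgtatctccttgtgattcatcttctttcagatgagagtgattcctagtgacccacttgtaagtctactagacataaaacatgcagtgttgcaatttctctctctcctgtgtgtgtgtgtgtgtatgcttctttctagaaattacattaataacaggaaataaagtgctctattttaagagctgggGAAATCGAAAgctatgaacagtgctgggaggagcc
Stat2: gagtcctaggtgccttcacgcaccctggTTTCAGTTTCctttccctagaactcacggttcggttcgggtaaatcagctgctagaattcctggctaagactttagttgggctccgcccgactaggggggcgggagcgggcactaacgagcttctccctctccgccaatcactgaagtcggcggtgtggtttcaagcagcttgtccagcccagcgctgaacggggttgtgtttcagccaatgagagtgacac

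Of the 33 lists, that of the cDC1 branch had the largest share of called genes, all lower. Of 25 tested, 20 were called lower and none higher, against 2.4% and 2.38% of all genes. All 25 had a log2 difference below 0, and the median was -1.79. Xcr1, the chemokine receptor that defines cDC1 (ENSMUSG00000060509, chr9:123852315-123862029), was at 51.99, 148 and 22.1 CPM in WT and 15.3, 8.23 and 6.96 CPM in ITD libraries. The 3 ITD libraries were close to each other and below every WT library, while WT libraries differed among themselves, with batch C highest (-2.56 ± 0.40, adjusted p = 0.00385). Irf8, the transcription factor that cDC1 require, was at 238, 708 and 313 CPM in WT and 59.7, 161 and 202 CPM in ITD libraries (-1.59 ± 0.29, adjusted p = 0.00861). Clec9a, a receptor for dead cells, was at 59.6, 87.1 and 55.3 CPM in WT and 22.6, 28.8 and 46.04 CPM in ITD libraries (-1.09 ± 0.21, adjusted p = 0.0107). Tlr3, the sensor of double-stranded RNA, fell from 12.5, 53.7 and 8.52 to 2.71, 2.38 and 1.002 CPM (-3.40 ± 0.50, adjusted p = 0.00305), and Tlr11, a sensor of profilin, from 18.5, 60.6 and 8.52 to 4.81, 5.45 and 4.72 CPM (-2.25 ± 0.38, adjusted p = 0.00578). Gcsam, Rab7b, Gpr141b and Itga8 had the smallest adjusted p of the list, with differences of -3.21, -2.80, -3.03 and -2.95 (adjusted p from 0.000525 to 0.00171). The 5 not called were Fzd1, Cd8a, Ly75, Batf3 and Cadm1. Cd8a, the sort marker, differed by -0.36, Batf3 by -0.32 and Cadm1 by -0.054 (adjusted p = 0.116, 0.296 and 0.913).

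These genes stood far below their level in canonical CD8+ cells in either genotype. Summed over the list, WT NC_CD8 cells had 3089.7, 5629 and 2325 CPM and ITD cells 1711, 1774 and 1668 CPM, against 18511 to 25652 CPM in WT C_CD8 cells. The groups did not overlap (exact permutation p = 0.1, two-sided, the smallest that 3 against 3 allows). In WT C_CD8 cells Xcr1 stood at a mean of 984 CPM and Irf8 at 2681 CPM. The median log2 difference of the list was -1.83, -2.83 and -0.68 in the 3 batches. Within C_CD8 cells none of the 25 was called and the median was -0.061. Without batch C, 7 members were called lower (16 without B and 20 without D), and with no block 6. Without batch C, Irf8, Clec9a, Tlr3 and Tlr11 had adjusted p of 0.0953, 0.117, 0.0558 and 0.0502. Without batch B, Irf8 and Clec9a had 0.0546 and 0.0637.

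Genes of the cell cycle fell as well. Of 30 proliferation genes 12 were called lower and none higher, against 2.4% and 2.38% of all genes. All 30 had a log2 difference below 0, and the median was -0.91. Mcm6, a subunit of the replicative helicase, went from 86.7, 90.9 and 74.6 to 55.2, 41.2 and 38.3 CPM (-0.92 ± 0.11, adjusted p = 0.000978), and Mcm2, another subunit, from 58.4, 51.7 and 39.2 to 36.3, 21.6 and 24.2 CPM (-0.88 ± 0.15, adjusted p = 0.0067). Ccna2, cyclin A of S and G2 phase, went from 10.9, 10.8 and 6.51 to 6.42, 1.99 and 1.002 CPM (-1.78 ± 0.30, adjusted p = 0.00617), and Birc5 (survivin), needed for chromosome segregation, from 8.28, 10.5 and 7.18 to 4.50, 1.25 and 0.825 CPM (-2.15 ± 0.37, adjusted p = 0.00672). Every ITD library of these 4 genes was below every WT library, and the gap was smaller in batch B than in batch C. Summed over the list, WT libraries had 839, 948 and 802 CPM and ITD libraries 628, 492 and 554 CPM, with no overlap (exact permutation p = 0.1, two-sided, the smallest possible). Without batch C 1 gene of the list was called lower (Mcm6, adjusted p = 0.0121; Ccna2 0.0725, Mcm2 0.0745, Birc5 0.0727), and without batches B and D 16 and 8 genes were called lower. With no block none was called in edgeR's test, and DESeq2 with the block called 18 lower.

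Markers of other spleen cells moved with the cDC1 and cell cycle genes in batches C and D. Of 15 T cell markers 8 were called lower, of 14 NK cell markers 4, of 14 red pulp macrophage markers 5, of 11 erythroid markers 4 and of 13 B cell markers 3, and none of these was called higher. Over all genes tested, 2.4% were called lower and 2.38% higher. C1qb, a complement chain of macrophages, was at 0.0481, 87.1 and 22.1 CPM in WT and 0, 11.4 and 5.66 CPM in ITD libraries. Vcam1, which red pulp macrophages carry, was at 6.74, 289.9 and 65.9 CPM in WT and 2.90, 31.2 and 31.2 CPM in ITD libraries. Both were high in WT batch C and low in batch B of either genotype. Trbc2, a constant chain of the T cell receptor, was at 0.915, 18.5 and 6.98 CPM in WT and 0.0617, 3.75 and 1.71 CPM in ITD libraries (reads may be shared with Trbc1). Il2rb, the IL-2 receptor chain of NK and T cells, was at 0.144, 54.5 and 33.95 CPM in WT and 0, 5.79 and 5.60 CPM in ITD libraries. Both were again lowest in batch B and highest in WT batch C. Globin Hbb-bt was at 0.770, 73.95 and 42.7 CPM in WT and 0.679, 11.6 and 2.24 CPM in ITD libraries, and 58.3% of its 50-base stretches are shared, mainly with Hbb-bs. Summed over each list, erythroid markers were at 12.97, 447 and 235 CPM in WT and 14.6, 59.1 and 19.3 CPM in ITD libraries. Red pulp macrophage markers were at 47.3, 1243 and 336 CPM and 64.9, 203 and 164 CPM, T cell markers at 136, 277 and 229 CPM and 82.1, 83.5 and 89.3 CPM, NK cell markers at 139, 289 and 262 CPM and 103, 97.97 and 107 CPM, and B cell markers at 96.6, 182 and 168 CPM and 64.3, 128 and 113 CPM.

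In batch B the macrophage and erythroid sums did not fall, and 7 of 14 red pulp macrophage markers had no read in the WT and 5 in the ITD library. Those with no read in either were C1qc, Cd5l, Mertk and Marco, while Adgre1 (F4/80) was at 24.1 CPM in WT and 44.3 CPM in ITD cells. Ncr1, which defines NK cells, had no read in either library of batch B. In this batch the T, NK and B cell sums were lower in ITD cells too. The cDC1 list had a median log2 difference there of -1.83 and the proliferation list one of -0.41. Whether cells of these other kinds had a part in the differences of any batch was not tested. Leaving out batch C ended the calls of all red pulp macrophage and erythroid markers (adjusted p: C1qb 0.105, Vcam1 0.052, Hbb-bt 0.0839). It also ended those of Trbc2 (0.0905) and Il2rb (0.138). Still called lower were 1 T cell marker (Cd5 0.0445), 2 NK cell markers (Gzma 0.0306, Ncr1 0.0286) and 2 B cell markers (Cd22 0.0181, Blk 0.00847). Without batch D no erythroid marker was called (Hbb-bt 0.0884).

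**Figure D3:**
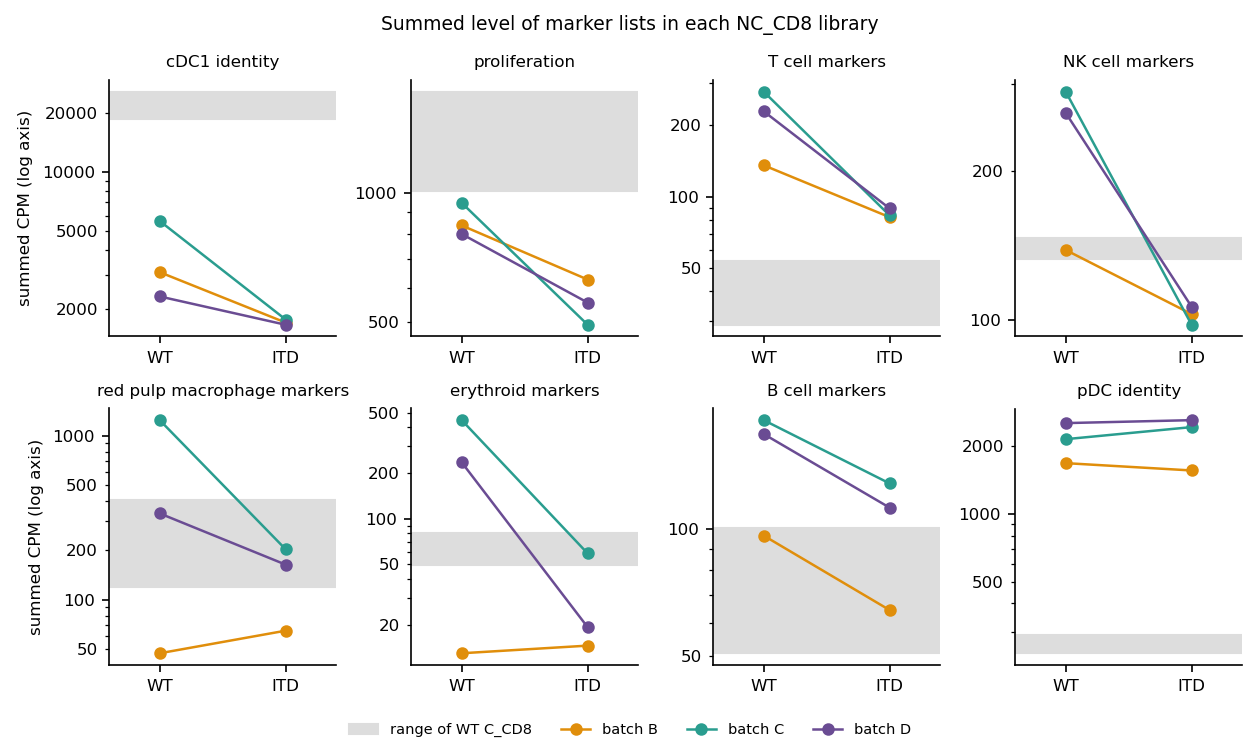
Summed CPM (log axis) of 8 marker lists in WT and ITD NC_CD8 libraries, with a line for each batch, and the range of the 3 WT C_CD8 libraries in grey. The cDC1 and proliferation sums fall in each batch, macrophage and erythroid sums fall in batches C and D only, and the pDC sum stays between 1558 and 2607 CPM in all 6 libraries.

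The lymphoid lists also held genes with reads in all 6 libraries that fell in batch B as in the others. Tcf7, a transcription factor known from T cell development, was at 88.4, 66.9 and 103 CPM in WT and 64.9, 39.6 and 52.9 CPM in ITD libraries (-0.72 ± 0.13, adjusted p = 0.00863). Cd5, an inhibitory receptor, was at 41.3, 25.7 and 36.5 CPM in WT and 19.1, 15.9 and 17.3 CPM in ITD libraries (-0.96 ± 0.19, adjusted p = 0.0122). Cd22, a lectin that inhibits the B cell receptor, was at 12.998, 36.9 and 19.995 CPM in WT and 4.26, 12.9 and 10.8 CPM in ITD libraries (-1.33 ± 0.16, adjusted p = 0.00103). Blk, a Src family kinase of B cells, was at 6.31, 3.94 and 4.63 CPM in WT and 0.864, 1.14 and 0.590 CPM in ITD libraries (-2.50 ± 0.34, adjusted p = 0.00194), and Ms4a1 (CD20), a channel-like protein of B cells, at 22.6, 22.7 and 24.8 CPM in WT and 13.4, 10.7 and 13.03 CPM in ITD libraries (-0.92 ± 0.16, adjusted p = 0.00797). The ITD libraries of each of these 5 genes were below all WT libraries. Without batch C, Tcf7 and Ms4a1 had adjusted p of 0.072 and 0.0784, and without batch B Cd5 had 0.0645. Tcf7 and Cd5 had adjusted p of 0.0768 and 0.0796 without batch D. No plasma cell, neutrophil, stromal or progenitor and basophil marker was called in edgeR's test, and DESeq2 called 1 higher and 1 lower among plasma cell and 1 higher among progenitor and basophil markers. At an unadjusted p under 0.05 edgeR had 2 higher and 2 lower among plasma cell, 1 higher and 1 lower among neutrophil, 0 higher and 0 lower among stromal and 2 higher and 0 lower among progenitor and basophil markers. At the smallest p of those lists, Xbp1 had -0.24 ± 0.064 (adjusted p = 0.0569), Mmp9 -1.67 ± 0.51 (adjusted p = 0.0932) and Il6ra 0.34 ± 0.10 (adjusted p = 0.0683). Of 20 monocyte and macrophage genes 2 were called lower, where 2.4% of all genes were. Among them was Mertk, a receptor for dead cells, at 0, 27.7 and 9.33 CPM in WT and 0, 2.38 and 1.002 CPM in ITD libraries. It lost the call without batch C (adjusted p = 0.332) and without batch D (0.173).

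Genes shared with plasmacytoid cells did not move one way. Of 20 pDC identity genes 2 were called higher and 4 lower, against 2.38% and 2.4% of all genes, while the median difference was above 0 (0.10). Tcf4, the factor that sets pDC fate, rose by 0.38 ± 0.10 (adjusted p = 0.0438) and Spib, an Ets factor of pDC, by 0.31 ± 0.074 (adjusted p = 0.0357). Siglech, a surface lectin of pDC, was at 258, 212 and 291 CPM in WT and 113, 151 and 169.9 CPM in ITD libraries, lower in every ITD library (-0.82 ± 0.13, adjusted p = 0.00456). Cd300c, Ly6d and Cox6a2 fell by 1.16, 1.01 and 1.36 on the log2 scale (adjusted p = 0.0123, 0.0212 and 0.0225). Of the 4 markers of the subset, Cd209d was at 229.9, 232 and 312 CPM in WT and 317, 447 and 413 CPM in ITD libraries and rose (0.60 ± 0.11, adjusted p = 0.00879), while Klra17 (0.50 ± 0.17, adjusted p = 0.128) and Cx3cr1 (0.15 ± 0.17, adjusted p = 0.715) were not called. Without batch C, Cd209d, Tcf4, Spib and Cox6a2 had adjusted p of 0.0874, 0.345, 0.109 and 0.176, and Siglech, Cd300c and Ly6d stayed called. Without batch B the pDC list held only 1 call, Siglech, and without batch D 2 calls.

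Of 20 cDC2 genes 3 were called higher and 2 lower (median 0.36), against 2.38% and 2.4% of all genes. Clec10a, a lectin that binds galactose, was at 32.8, 50.3 and 65.4 CPM in WT and 57.5, 135 and 117 CPM in ITD libraries (1.03 ± 0.16, adjusted p = 0.00377). Mgl2, its close relative, was at 7.75, 12.9 and 16.9 CPM in WT and 14.7, 47.4 and 33.3 CPM in ITD libraries (1.28 ± 0.18, adjusted p = 0.00261). Both were higher in ITD in each batch, and Mgl2 shares 13.1% of its 50-base stretches with Clec10a. Tmem176a, a membrane protein of immature dendritic cells, rose by 0.67 ± 0.14 (adjusted p = 0.0189). Cd7, an Ig family receptor, was at 529, 410.0 and 477 CPM in WT and 342, 251 and 271 CPM in ITD libraries and fell (-0.72 ± 0.081, adjusted p = 0.000827), as did Dtx1, a ubiquitin ligase of the Notch pathway (-1.23 ± 0.25, adjusted p = 0.016). Clec10a and Cd7 were not highest in CD11b+ cells. WT means of Clec10a were 224 CPM in PDC, 9.23 CPM in Esam-hi and 84.1 CPM in Esam-lo cells. Those of Cd7 were 472 CPM in NC_CD8 cells, 334 CPM in PDC, 238 CPM in Esam-hi and 132 CPM in Esam-lo cells. Dtx1 was highest in Esam-hi cells (291 CPM). Among 34 lectins and pattern receptors 5 were called higher and 4 lower. Tlr2, a sensor of bacterial lipoproteins, rose from 54.4, 68.5 and 82.8 to 109, 138 and 152 CPM (0.96 ± 0.11, adjusted p = 0.000889). Without batch C the calls of Tmem176a and Dtx1 were lost (adjusted p = 0.161 and 0.0901), as they were without batch B (0.0976 and 0.0526), and that of Dtx1 also without batch D (0.0994).

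Of 36 transcription factors of dendritic cells 9 were called higher and 2 lower (median 0.15), against 2.38% and 2.4% of all genes. Bcl6, described with the STAT5 targets, is 1 of the 9. Cbfa2t3, a corepressor, rose by 0.51 ± 0.081, Rbpj, the effector of Notch, by 0.45 ± 0.082 and Irf2, an antagonist of interferon genes, by 0.35 ± 0.071 (adjusted p = 0.00416, 0.0092 and 0.014). Of these only Rbpj had groups that did not overlap (95.6, 111 and 106 CPM in WT and 139.7, 136 and 149 CPM in ITD libraries). The 2 that fell were Irf8 and Id2, the inhibitor of E proteins that cDC1 and other conventional cells need, at 265, 338 and 112 CPM in WT and 182, 64.998 and 61.3 CPM in ITD libraries (-1.25 ± 0.28, adjusted p = 0.0244). Without batch C 1 factor was called higher (Rbpj, adjusted p = 0.0294) and none lower (Id2 0.105, Cbfa2t3 0.054, Irf2 0.105). Without batches B and D 3 were called higher in each case. Rbpj (0.0694 and 0.0614) and Irf2 (0.082 and 0.0513) were not among them, and Id2 had 0.0541 without batch D.

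Among called receptors for cytokines most were lower. Of 24 tested, 1 was called higher and 6 lower, against 2.38% and 2.4% of all genes, while the median difference was 0.052. Csf2ra, a chain of the GM-CSF receptor, was at 145, 169 and 152 CPM in WT and 117, 134 and 129.6 CPM in ITD libraries (-0.29 ± 0.066, adjusted p = 0.0256). Ifnar2, of the type I interferon receptor, was at 90.2, 104 and 90.8 CPM in WT and 76.8, 71.2 and 74.3 CPM in ITD libraries (-0.36 ± 0.076, adjusted p = 0.0197). Il21r fell within each batch (-0.58, -0.68 and -0.64; adjusted p = 0.0122), and Il4ra and Ifngr1 fell by small amounts (-0.36 ± 0.083 and -0.28 ± 0.071, adjusted p = 0.0297 and 0.0462). Il7r, the IL-7 receptor, rose from 31.4, 17.6 and 17.2 to 53.5, 32.5 and 32.1 CPM (0.85 ± 0.19, adjusted p = 0.0251). Without batch C none of the 7 was called (Csf2ra 0.188, Ifnar2 0.205, Il21r 0.0925, Il7r 0.146). Without batch B, Csf2ra and Il7r had adjusted p of 0.0776 and 0.0824. With batch D left out 1 gene was called lower, Il2rb (0.0465). Csf2ra (0.0691), Ifnar2 (0.0594), Il21r (0.0649) and Il7r (0.111) were then not called. Among 20 chemokine receptors 2 were called higher, among them Ccr7, and 2 lower, Xcr1 and Cxcr3 (2.17, 17.3 and 4.83 CPM in WT and 0.494, 1.42 and 1.24 CPM in ITD libraries for Cxcr3; -2.82 ± 0.36, adjusted p = 0.00143).

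Adhesion genes split. Of 20 tested, 3 were called higher and 6 lower (median -0.16), against 2.38% and 2.4% of all genes. Cdh2 (N-cadherin) had no read in the 3 WT libraries and 0.185, 4.14 and 7.13 CPM in the ITD libraries. Its 197 ITD reads against 0 are at least 72.4-fold more, against the floor of 3 reads (adjusted p = 0.00288). Jup (plakoglobin), which anchors cadherins, rose from 108, 88.1 and 128 to 189.8, 178 and 194 CPM (0.81 ± 0.16, adjusted p = 0.0157). Ctnna1, alpha-catenin of the same junctions, rose from 367, 355 and 442 to 485, 543 and 604 CPM (0.49 ± 0.083, adjusted p = 0.00627). Cd44, the hyaluronan receptor, fell from 121, 132 and 103 to 67.2, 69.99 and 84.1 CPM (-0.69 ± 0.11, adjusted p = 0.00363). Itgae, the integrin of CD103+ cDC1, fell from 13.8, 18.1 and 3.15 to 2.53, 2.90 and 1.83 CPM (-2.15 ± 0.37, adjusted p = 0.00628). For each of these 5 genes all ITD libraries lay on one side of all WT libraries. Without batch C the calls of Jup, Ctnna1 and Itgae were lost (adjusted p = 0.146, 0.0745 and 0.0956), and Jup had 0.0735 without batch B.

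Of 14 tested genes of the BCL2 family 3 were called higher and none lower (median 0.10), against 2.38% and 2.4% of all genes. Bcl2l11 (Bim) and Pmaip1 (Noxa), which promote cell death, rose by 0.78 ± 0.11 and 0.77 ± 0.14 (adjusted p = 0.00237 and 0.00766), and Bcl2a1b, which opposes it, by 0.81 ± 0.13 (adjusted p = 0.00509). Pmaip1 was at 1684, 1844 and 1539 CPM in WT and 2312, 3306 and 3124 CPM in ITD libraries. Bcl2a1b shares 79.2% of its 50-base stretches with its copies, mainly Bcl2a1d, so its value is uncertain. Among 19 genes of lipid handling, Ptgs2 (COX-2), which makes prostaglandins, rose from 629, 829 and 819 to 1639, 2090.0 and 2312 CPM (1.40 ± 0.23, adjusted p = 0.0053). Apoe, the lipid carrier (ENSMUSG00000002985, chr7:19696109-19699188), was at 209, 197 and 165 CPM in WT and 86.2, 59.4 and 52.6 CPM in ITD libraries, and had the smallest adjusted p of all 18093 genes (-1.55 ± 0.10, adjusted p = 3.73e-05). Cd36, a scavenger receptor that cDC1 also express, fell from 45.9, 89.8 and 10.8 to 9.44, 4.71 and 5.72 CPM (-2.59 ± 0.44, adjusted p = 0.00663). Pmaip1 lost the call without batch C (adjusted p = 0.0705) and without batch D (0.0636). Ptgs2, Apoe and Cd36 kept it when any 1 batch was left out.

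**Figure D4:**
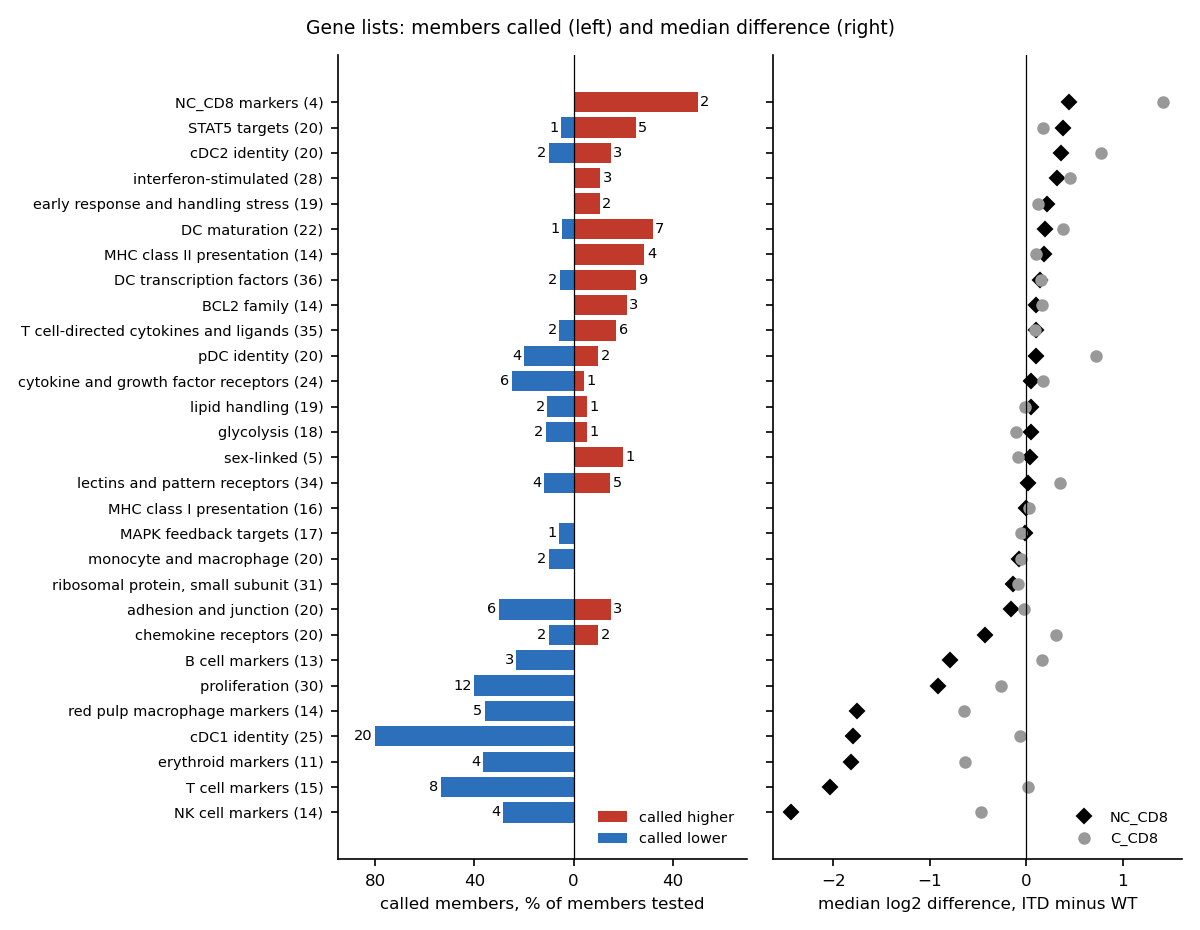
Left, share of the tested members of each list that were called higher (red) or lower (blue) in ITD NC_CD8 cells, with the counts beside the bars and the number tested in brackets. Right, median log2 difference of each list in NC_CD8 cells (black) and in C_CD8 cells (grey); the cDC1 list has 20 of 25 members called lower, with medians of -1.79 and -0.061.

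The genes with the largest rises among called protein-coding genes (mean of at least 5 CPM over the 6 libraries, same sign in each batch) were Ccn3, Upk1b, Apod, Socs2, Cp, Repin1, Gbp7, Nrep, Fat3, Prph, Tnfsf4 and Adm. Ccn3, a secreted matricellular protein (ENSMUSG00000037362, chr15:54745702-54754039), had no read in WT cells and 5.31, 14.7 and 15.6 CPM in ITD cells. Its 609 reads against 0 are at least 224-fold more against the floor of 3 reads (adjusted p = 0.0035). Upk1b, a tetraspanin of urothelium, was at 0.674, 0.985 and 0.805 CPM in WT and 7.96, 10.2 and 11.4 CPM in ITD libraries (3.57 ± 0.84, adjusted p = 0.0394). Apod, a lipocalin, was at 2.74, 2.22 and 4.43 CPM in WT and 19.9, 17.9 and 39.6 CPM in ITD libraries (3.01 ± 0.43, adjusted p = 0.00307). Cp, the copper-binding ceruloplasmin, was at 33.9, 23.4 and 32.5 CPM in WT and 147, 170.1 and 162 CPM in ITD libraries (2.43 ± 0.38, adjusted p = 0.00414). Repin1, a zinc finger protein (ENSMUSG00000052751, chr6:48593883-48599082), was at 6.93, 9.55 and 4.36 CPM in WT and 27.7, 50.01 and 27.1 CPM in ITD libraries (2.33 ± 0.17, adjusted p = 4.64e-05). Gbp7, an interferon-inducible GTPase, was at 3.32, 12.4 and 11.004 CPM in WT and 22.6, 42.7 and 58.1 CPM in ITD libraries (2.29 ± 0.22, adjusted p = 0.000428), and 12.7% of its 50-base stretches are shared, mainly with Gm43802. Adm, the vasodilator peptide adrenomedullin, rose from 13.9, 9.45 and 10.4 to 39.2, 51.7 and 56.3 CPM (2.12 ± 0.40, adjusted p = 0.0101). Nrep, Fat3 and Prph had differences of 2.25, 2.22 and 2.21 (adjusted p = 0.0124, 0.0255 and 0.00707). For all of the 12 but Tnfsf4, the ITD libraries lay above every WT library. Without batch C, Upk1b, Cp, Nrep, Fat3, Prph and Adm had adjusted p of 0.202, 0.0541, 0.145, 0.188, 0.0774 and 0.0991. Without batch B, Upk1b, Nrep and Fat3 had 0.128, 0.0538 and 0.114, and without batch D, Upk1b, Fat3 and Adm had 0.176, 0.128 and 0.0786.

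By the same rule the largest falls were in Ttc39a, Cd207, Fam149a, Tlr3, Hk3, P3h2, Gcsam, Klrc1, Hbb-bt, Il2rb, Rab7b and Treml4. Ttc39a (ENSMUSG00000028555, chr4:109406623-109444745) was at 13.9, 30.7 and 6.51 CPM in WT and 2.53, 0.624 and 0.413 CPM in ITD libraries (-3.79 ± 0.42, adjusted p = 0.000827). Cd207 (langerin), a lectin of Langerhans cells and of some cDC1 (ENSMUSG00000034783, chr6:83671215-83677857), was at 38.6, 36.1 and 3.15 CPM in WT and 4.07, 1.65 and 0.707 CPM in ITD libraries (-3.56 ± 0.33, adjusted p = 0.00042). Its groups overlapped, since WT batch D was low. Hk3, the hexokinase of myeloid cells, was at 10.2, 25.6 and 4.70 CPM in WT and 0.185, 1.76 and 1.83 CPM in ITD libraries (-3.31 ± 0.49, adjusted p = 0.00299). Treml4, a receptor of CD8+ dendritic cells and macrophages for dead cells, was at 21.6, 69.2 and 12.2 CPM in WT and 4.81, 5.68 and 2.65 CPM in ITD libraries (-2.78 ± 0.28, adjusted p = 0.000581). Gcsam, Rab7b and Tlr3 are also on the cDC1 list, Il2rb on the NK list and Hbb-bt on the erythroid list. Fam149a and P3h2 had differences of -3.44 and -3.25 (adjusted p = 0.00288 and 0.00163), and P3h2 shares 27.5% of its 50-base stretches with Gm4524. Klrc1 (NKG2A), an inhibitory receptor of NK cells, was at 0.433, 17.1 and 9.998 CPM in WT and 0, 1.08 and 2.06 CPM in ITD libraries, near 0 in batch B of both genotypes (adjusted p = 0.00288), and Klrc1 shares 38.6% of its 50-base stretches with Klrc2. Without batch C, Hk3 and Klrc1 had adjusted p of 0.0594 and 0.072. In WT C_CD8 cells Ttc39a, Cd207, Gcsam and Tlr3 stood at means of 184, 310.4, 288 and 237 CPM, above every NC_CD8 library.

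To see where the response of NC_CD8 cells differed, the ITD differences of the subsets were contrasted in the same fit. The same test called 215 genes higher (1.19%) and 8 lower (0.0442%) in C_CD8 cells, 223 in all (1.23%). In PDC, with 2 pairs, it called 21 higher (0.116%) and 24 lower (0.133%), 45 in all (0.249%). All these contrasts share the NC_CD8 libraries. Taken with its sign, the ITD difference in NC_CD8 cells was above that in C_CD8 cells for 21 genes (0.116%). It was below for 96 (0.531%), genes that fell further in NC_CD8 cells included, which makes 117 in all (0.647%). Socs2 rose by 2.98 in NC_CD8 and had 0.77 in C_CD8 cells (not called, adjusted p = 0.108), where WT cells already had a mean of 23.2 CPM, a difference between subsets of 2.21 ± 0.31 (adjusted p = 0.0095). Gbp7, Kcnd1, a potassium channel, Cacnb2, a calcium channel subunit, and Olfm1, a secreted olfactomedin, rose in NC_CD8 cells and had C_CD8 differences of 0.036, -0.20, -0.24 and -0.011. Gcsam, Cd207, Ttc39a, Gramd2, Ptgis and Tnfrsf9 fell in NC_CD8 cells with C_CD8 differences between -0.61 and 1.47. Of the 25 cDC1 genes, 7 were among the 96, including Tlr3, Rab7b, Itga8, Gpr141b and Itgae.

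Other genes of this contrast moved in C_CD8 cells and less, or the other way, in NC_CD8 cells. Cd209d rose by 2.28 in C_CD8 cells from a WT mean of 1.08 CPM and by 0.60 in NC_CD8 cells from 258 CPM (difference -1.68 ± 0.24, adjusted p = 0.0116). Spib rose by 1.73 and 0.31 (-1.42 ± 0.12, 0.000454). Tcf7 rose by 1.35 in C_CD8 cells (0.000774) and fell by 0.72 in NC_CD8 cells (-2.08 ± 0.19, 0.000528). Fscn1 rose in both, by 1.14 and 0.98, and the difference between the subsets was not called (-0.16 ± 0.14, 0.822). With no block 1 gene was called in this contrast, and without batch C 43.

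Against PDC, the contrast called 12 genes above (0.0663%) and 33 below (0.182%), 45 in all (0.249%). Repin1, Ptger4, a prostaglandin E2 receptor, and Bcl6 rose in NC_CD8 and had PDC differences of 0.65, -0.21 and -0.57 (differences between subsets 1.68 ± 0.26, 1.32 ± 0.19 and 0.97 ± 0.12). Birc5 and Pclaf, cell cycle genes, fell in NC_CD8 cells and had 0.90 and 1.99 in PDC (-3.04 ± 0.55 and -3.55 ± 0.54, adjusted p = 0.04996 and 0.0287). The PDC difference of Birc5 was not called (adjusted p = 0.753). In NC_CD8 cells both lost the call without batch C (adjusted p = 0.0727 and 0.167), and Pclaf also without batch D (0.0841). Socs2 rose more in PDC (5.45) than in NC_CD8 cells (difference -2.48 ± 0.40, adjusted p = 0.0343). Against the mean of the other 4 subsets 38 genes were above (0.21%) and 113 below (0.625%), 151 in all (0.835%). Repin1 (1.32 ± 0.19), Gbp7 (1.40 ± 0.25), Olfm1 (1.45 ± 0.28), Mitf, a bHLH factor (1.43 ± 0.26), and Tmem154 (1.37 ± 0.25) were above. Gbp7 also rose in PDC (1.97, adjusted p = 0.0129), and its NC_CD8 and PDC differences were not called unlike (0.32 ± 0.35, adjusted p = 0.881). Gcsam (-4.09 ± 0.43), Cd207 (-4.02 ± 0.42), Tlr3 (-3.95 ± 0.67) and Clec4b2, a lectin (-4.21 ± 0.66), were below, and 9 of the 25 cDC1 genes were, Xcr1 and Tlr11 among them. PDC differences of 3.99 for Gcsam and 3.59 for Clec4b2 enter these values. They came from WT means of 0.0714 and 0 CPM and were not called (adjusted p = 0.316 and 0.843). Without the batch C pair of NC_CD8 cells these contrasts called 15 and 11 genes, and with no block 1 each.

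**Figure D5:**
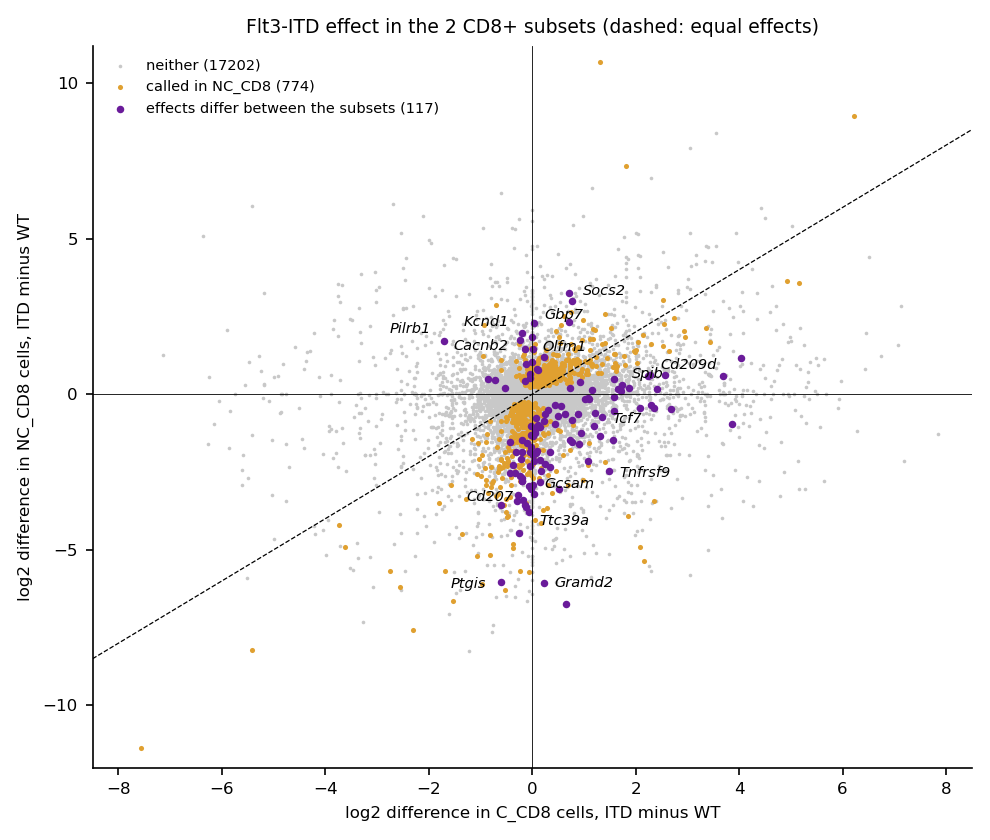
Log2 difference between ITD and WT in NC_CD8 cells (vertical axis) and C_CD8 cells (horizontal axis), 1 point for each of the 18093 genes tested; the dashed line marks equal differences. Purple points are the 117 genes whose difference was called unlike between the subsets, 96 of them below the line.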

How the data were processed

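RNA of dendritic cells sorted by flow cytometry from mouse spleen was isolated by a column kit, with a Trizol step first for samples the labels do not name, and turned into cDNA by a low-input template-switching kit and sequenced, per the labels' protocols. The authors deposited a table of raw counts per gene for 24 libraries, the only values used here. bcl2fastq 1.8.4, Bowtie2 (given as 0.4), DESeq2 1.8.2 and build mm10 are named per the submitters' processing notes. The counting program, annotation and strand setting are not stated, so antisense, overlapping and copied genes may share reads. A second deposited table, of normalized values, was not used.

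Genes were tested with edgeR 4.0.16 (R 4.3.3) quasi-likelihood tests on the counts. All 24 libraries entered 1 fit with TMM scaling, filterByExpr (minimum count 10, leaving 18093 of 39017 genes), a block for each of 12 pairs of subset and batch, and 1 ITD coefficient for each subset (7 residual degrees of freedom). The pairing comes from the batch letters of the labels. Deviations from the group means of WT and ITD NC_CD8 libraries of 1 batch were correlated at r = 0.526 in B, 0.302 in C and 0.21 in D over genes, against -0.371 to 0.148 across batches. Replicates of 1 genotype differed beyond counting noise. P-values were adjusted over all genes tested (Benjamini-Hochberg, threshold 0.05). The scripts were tested on counts simulated from the fit, with known changes put into some genes. The test recovered 36% of changes of 1.5-fold, 66% of 2-fold and 96% of 4-fold. Of the 164 genes called there, 17 had no change put in.

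CPM of genes use TMM-scaled library sizes, those of list sums library totals, and batch differences log2 CPM with a prior count of 2. The precision of each library was set by 14112020 to 20821930 counts. For genes with 0 reads in a group, bounds use a floor of 3 reads over the group and cover counting error only. Symbols and positions are of GENCODE M21 (37693 of 39017 genes matched), promoter sequences of RefSeq (GRCm38.p6).

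Named genes are 144: the markers, Flt3, Cdh2 and Socs2, the 12 protein-coding genes with the largest change each way (called, mean of at least 5 CPM, same sign in 3 batches), up to 4 called members by adjusted p for each list and direction (up to 2 by smallest p where none was called), and up to 6 each way in each contrast of subsets, by size. Other genes were chosen after their values were seen, and some named genes are not reported here. Members and lists were chosen with earlier results of these data known. The alternatives tried were no block, NC_CD8 libraries only, DESeq2 size factors, DESeq2 1.42.0, 2 other filters, each batch left out and TMM-scaled sums, and, chosen after seeing the data, the counts of each list under these.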

Additional observations from a re-analysis of the deposited data

Results flagged for a closer look

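The genes below had ITD differences in NC_CD8 cells that differed from those of other subsets by a test of the difference itself (edgeR's quasi-likelihood test, adjusted p under 0.05 over all genes). They are the 6 largest each way in each of 3 contrasts among protein-coding genes with a mean of at least 5 CPM, out of 117, 45 and 151 genes called. These values are log2, the NC_CD8 difference minus the other. All contrasts share the NC_CD8 libraries, so they are not independent of each other.

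Against C_CD8 cells the genes above were Pilrb1 (3.42), Gbp7 (2.25), Socs2 (2.21), Kcnd1 (2.18), Cacnb2 (1.99) and Olfm1 (1.85). Kcnd1 was at 2.36, 6.35 and 6.84 CPM in WT and 12.9, 21.6 and 23.4 CPM in ITD libraries and Olfm1 at 32.5, 47.4 and 24.4 CPM in WT and 81.1, 162 and 135 CPM in ITD libraries, so both were higher in every ITD library than in any WT library. Pilrb1, a receptor of the paired Ig-like family, was at 2.07, 8.71 and 5.30 CPM in WT and 8.14, 21.5 and 19.8 CPM in ITD libraries and shares 32.2% of its 50-base stretches, mainly with Pilrb2. Its C_CD8 difference was -1.72 and was not called (adjusted p = 0.204). Its NC_CD8 difference of 1.71 lost the call without batch B, C or D (adjusted p = 0.0598, 0.055 and 0.0884). Pilrb1 lies 9.48 Mb from Flt3.

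The genes below were Gramd2 (-6.29), Ptgis (-5.42), Tnfrsf9 (-3.94), Ttc39a (-3.73), Cd207 (-3.42) and Gcsam (-3.24). Ptgis, prostacyclin synthase, had 191 reads over the WT and 2 over the ITD NC_CD8 libraries, a ratio of 0.0115 (95% counting interval 0.00139 to 0.0423). It was at 2.41, 6.75 and 0.268 CPM in WT and 0.123, 0 and 0 CPM in ITD libraries and, without batch C, at an adjusted p of 0.072 for the NC_CD8 difference. Gramd2 was at 2.31, 15.7 and 0.403 CPM in WT and 0.247, 0 and 0 CPM in ITD libraries (adjusted p = 0.104 without batch C). Tnfrsf9 (4-1BB), the receptor for the product of Tnfsf9, was at 2.26, 27.1 and 20.2 CPM in WT and 1.54, 2.90 and 2.59 CPM in ITD libraries, and its difference in C_CD8 cells was 1.47 (adjusted p = 0.157). Its NC_CD8 difference lost the call without batch C and without batch D (adjusted p = 0.174 and 0.118).

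Against PDC the genes above were Repin1 (1.68), Hspb1 (1.63), Ptger4 (1.32), Arl5c (0.99), Bcl6 (0.97) and Kctd12 (0.88). Hspb1 and Kctd12 share 50.1% and 62% of their 50-base stretches with other annotated genes. Those below were Gcsam (-7.19), 2900026A02Rik (-6.73), Cd207 (-5.21), Ttc39a (-3.59), Pclaf (-3.55) and Birc5 (-3.04). In PDC, Gcsam and Cd207 had differences of 3.99 and 1.64 from WT means of 0.0714 and 0.417 CPM. 2900026A02Rik had -0.95 in NC_CD8 cells, so most of its value came from PDC. Its PDC difference of 5.78 was not called (adjusted p = 0.104). It rested on 0 and 0 CPM in WT and 0.0504 and 0.749 CPM in ITD libraries.

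Against the mean of the other 4 subsets the genes above were Pilrb1 (2.66), Olfm1 (1.45), Mitf (1.43), Gbp7 (1.40), Tmem154 (1.37) and Repin1 (1.32). Gbp7 also rose in PDC (1.97, adjusted p = 0.0129). Those below were Ptgis (-5.84), Clec4b2 (-4.21), Gcsam (-4.09), Cd207 (-4.02), Tlr3 (-3.95) and Ttc39a (-3.86). Clec4b2 was at 2.50, 8.86 and 1.88 CPM in WT and 0.0617, 0.908 and 0.177 CPM in ITD libraries, with every ITD library below every WT library. Its PDC difference of 3.59, which enters the mean, was not called (adjusted p = 0.843). That difference rested on 0 and 0 CPM in WT and 0.101 and 0.0535 CPM in ITD libraries. With no block, 1 gene was called in each of the 3 contrasts.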

How the results depend on the processing

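The replicate block decided most calls. Without it the same test called 19 genes higher and 37 lower, and 1 gene in each of the contrasts with C_CD8, PDC and the mean of the other 4 subsets. With NC_CD8 libraries only, 438 were higher and 286 lower (15340 tested), of which 303 and 244 were among the main calls. DESeq2 called 566 and 542, its size factors in edgeR 418 and 433, no filter 486 and 538, and a filter of at least 1 CPM in 3 libraries 454 and 478. The contrasts, with 117, 45 and 151 genes called, had 316, 309 and 336 in DESeq2 and 272, 214 and 258 with no filter, and that with PDC had 88 under the CPM filter.

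Leaving out each batch gave 126 to 223 genes higher and 118 to 431 lower, and 43 to 129, 15 to 85 and 11 to 126 genes in the contrasts with C_CD8, PDC and the mean. The lowest of each came without batch C, where 112 of the 126 and 110 of the 118 were among the main calls (198 of 223 and 297 of 431 without B, 193 of 211 and 228 of 279 without D). Of the 130 called named genes 100, 59 and 88 kept the call without B, C and D, 21 without the block and 125 in DESeq2. Fewer pairs leave fewer degrees of freedom, and the part of any 1 library in these losses was not tested. Without batch B, Xist had no read left in NC_CD8 libraries, so its difference could not be estimated (adjusted p = 1).

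With TMM-scaled sums, 4 list differences changed sign, each near 0: class I presentation (0.0975 against -0.00022), cytokine receptors (0.0057 against -0.085), lectins (0.0883 against -0.0032) and plasma cell markers (0.0392 against -0.052). None of the sums could pass the threshold, since 3 against 3 allows an exact permutation p of 0.1 and sign flips within pairs 0.25. Genes under about 1 CPM rest on few reads, and their fold changes are imprecise.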

Other observations

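Housekeeping groups had small median differences. Over all genes tested, 2.38% were called higher and 2.4% lower, and 3493 of 18093 had an unadjusted p under 0.05 in edgeR's test. Of 31 tested small ribosomal subunit genes none was called in edgeR's test (0 higher and 11 lower at an unadjusted p under 0.05) and 1 was called lower in DESeq2, 29 had a difference below 0 and the median was -0.14. Among 18 genes of glycolysis Pfkp, a phosphofructokinase, was called higher (0.29 ± 0.071, adjusted p = 0.0397), and Hk3 and Ldha, lactate dehydrogenase, lower (Ldha -0.30 ± 0.066, adjusted p = 0.0214). The median of the list was 0.049, and neither Pfkp nor Ldha was called when any 1 batch was left out. Of 19 genes of the early response, which also rise when tissue is handled, Zfp36 and Btg2 were called higher (0.50 ± 0.089 and 0.45 ± 0.10, adjusted p = 0.00841 and 0.0213). Neither was called without batch C (adjusted p = 0.0948 and 0.186) or without batch D (0.0676 and 0.13). The median of that list was 0.21. Its sum was 25043, 27872 and 22071 CPM in WT and 25704, 31827 and 26269 CPM in ITD libraries.

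A few called genes rested on 1 library (chosen after their values were seen). Igkv1-88, an immunoglobulin kappa variable segment, was at 0, 55.4 and 0.134 CPM in WT and 0, 0 and 0 CPM in ITD libraries (adjusted p = 0.0012 with and 0.514 without the block). Ighv4-1, a heavy chain segment, was at 0, 49.5 and 0.0671 CPM in WT and 0.123, 0 and 0 CPM in ITD libraries (adjusted p = 0.0204). Both had nearly all reads in WT batch C. Amy2a4, a pancreatic amylase, had 3.96 CPM in WT batch D, with 0, 0 and 0 CPM in the ITD libraries.

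Genes near Flt3 on chromosome 5 were counted apart, since they can be inherited with the ITD allele. Within 5 Mb, 6 of 96 genes tested were called (6.25%), within 10 Mb 8 of 178 (4.49%) and within 20 Mb 14 of 273 (5.13%), against 4.79% of all. Those within 10 Mb include Fscn1, at 4.37 Mb, Pilrb1, at 9.48 Mb, and Cyth3, at 3.71 Mb (0.80 ± 0.14, adjusted p = 0.00821).

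Neutrophil markers, summed over 14 genes, were at 5.14, 57.7 and 19.1 CPM in WT and 7.14, 26.7 and 11.7 CPM in ITD cells. Of the 14, 8 had no read in WT batch B. The highest sum, in WT batch C, lay above WT C_CD8 libraries (at most 22.6 CPM) and below WT Esam-hi libraries (at least 123 CPM). Mpo, a granule enzyme of neutrophil precursors, had 0 reads in WT and 16 in ITD libraries.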
